A study of Mus musculus with 6 samples.

Results

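The 2 arrays compared here hold RNA from 3T3-L1 adipocytes that received ritonavir at the same dose for the same time, once without and once with dimethyl sulfoxide (DMSO). They are 2 of the 6 arrays of the series and were taken by their labels, the array labelled Ritonavir+DMSO minus the array labelled Ritonavir. The 3T3-L1 line is 1 mouse clone of preadipocytes that matures into fat cells after hormonal induction, and ritonavir is an HIV protease inhibitor. In the first experiment, maturing cells received 20 uM ritonavir, 1 uM tenofovir, another antiretroviral drug, or 0.1% ethanol as the vehicle control, for 5 days. In the second, they received 20 uM ritonavir for 5 days with 100 uM of the c9,t11 or of the t10,c12 isomer of conjugated linoleic acid (CLA), or with 0.1% DMSO as the fatty acid vehicle. All groups were grown in medium with insulin after induction with insulin, 3-isobutyl-1-methylxanthine and dexamethasone. The sources used here do not say whether the ritonavir cells also received ethanol, or whether the CLA cells also received DMSO. RNA of 4 replicate experiments was pooled for each array, so each group is 1 array, no spread between cultures can be measured and no difference was tested. DMSO and the experiment changed together between these arrays and cannot be told apart.

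Adipocyte maturation is driven by a cascade of transcription factors in which early members such as CEBPB and CEBPD act before PPARG and CEBPA, and the latter pair switches on the genes for lipid storage, adipokines and insulin-dependent glucose uptake. As preadipocytes become fat cells they round up, take down actin stress fibres and replace a fibroblast matrix with a basement membrane. Contractile genes such as the smooth muscle actins are transcribed by serum response factor (SRF), whose cofactors of the MRTF family respond to the state of the actin cytoskeleton, and which binds a sequence called the CArG box.

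Values are log2 units, in which a difference of 1 is a 2-fold difference, and differences are given as the DMSO array minus the ritonavir array. Among 12386 genes that reached the level of detection on 1 or more of the 6 arrays, a level set at 6.55, which is the median value of the table, 351 were higher by 2-fold or more on the DMSO array (2.83%) and 257 lower by 2-fold or more (2.07%). At 1.5-fold, 14.6% of the detected genes lay apart in either direction. With values under the level of detection raised to it, 302 genes were higher (2.44%) and 239 lower (1.93%). The median difference of all detected genes was 0.01, and its robust SD was 0.31, against 0.11 between the tenofovir and ethanol arrays of the first experiment and 0.14 between the c9,t11-CLA and DMSO arrays of the second. The 3' minus 5' difference of the actin control probe sets, a sign of RNA degradation, was 0.38 on the DMSO array and 0.19 on the ritonavir array, and that of the Gapdh controls was -0.12 and -0.10. Its part in the results was not tested.

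The adipocyte label was borne by markers on both arrays, at different levels. Of 22 mature adipocyte markers 17 were detected, while Cidea, Acvr1c and Cd300lg reached the level of detection on no array. Of the 17 detected markers, 15 reached that level on the DMSO array and 14 on the ritonavir array. Their mean level was 11.62 and 9.07. The mean was 12.68 with ethanol and 12.71 with tenofovir. In RNA from whole cultures, fewer fat cells and less of an RNA per fat cell cannot be told apart.

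Genes of the mature fat cell were higher on the DMSO array than on the ritonavir array. Of the 17 detected markers, 12 were higher by 2-fold or more, 11 with low values raised, and 0 were 2-fold lower. All 17 differences were above 0, at a median difference of 2.19 against 0.01 over all detected genes. Lep and Pck1, the latter among the 12, were under the level of detection on both arrays compared. The median of the other markers was 2.92. The ritonavir array was the lowest of the 6 for 15 of the 17 markers, against 27.5% of all detected genes.

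**Figure D1:**
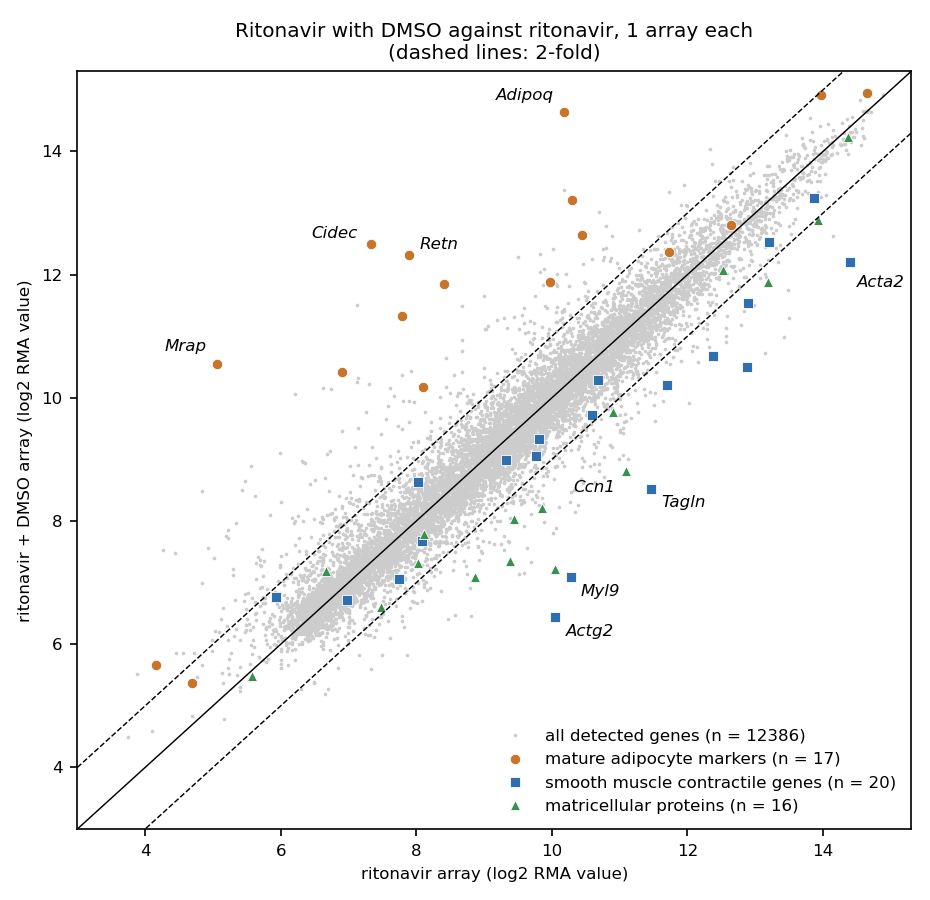
Log2 RMA value of every detected gene on the ritonavir array (horizontal axis) and the DMSO array (vertical axis). Grey points are the 12386 detected genes, orange circles the 17 mature adipocyte markers, blue squares the 20 smooth muscle contractile genes and green triangles the 16 matricellular proteins. The solid line marks equal values and the dashed lines 2-fold. All orange circles lie above the line of equal values, and 18 of the 20 squares and 15 of the 16 triangles lie under it.

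Adipoq encodes adiponectin, an abundant hormone secreted by fat cells. It read 10.18 on the ritonavir array and 14.64 on the DMSO array, 21.9-fold apart, against 14.79 with ethanol, 14.82 with tenofovir, 14.67 with c9,t11-CLA and 13.07 with t10,c12-CLA. Ritonavir alone was the lowest, and the DMSO value lay close to that of cells without ritonavir. The DMSO, ethanol, tenofovir and c9,t11-CLA values of Adipoq lay near the top of the scale, where RMA values can be compressed. Whether this hid a larger difference between the DMSO array and cells without ritonavir was not tested. Retn, which encodes the hormone resistin, read 7.89 on the ritonavir array and 12.31 on the DMSO array, 21.4-fold apart, against 14.47 with ethanol, 14.54 with tenofovir, 12.72 with c9,t11-CLA and 9.30 with t10,c12-CLA. Here the DMSO array lay above ritonavir alone and below both arrays without ritonavir. Mrap, the accessory protein that carries the melanocortin receptor to the surface of fat cells, was under the level of detection on the ritonavir array at 5.06 and read 10.55 on the DMSO array. It read 12.41 with ethanol, 12.43 with tenofovir, 10.58 with c9,t11-CLA and 7.51 with t10,c12-CLA. Its difference of 5.49 was the largest of all detected genes that have a gene name other than a clone symbol, and 4.00 with the low value raised.

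Cidec, a protein of the lipid droplet surface that lets droplets fuse, had the next largest difference. It read 7.33 on the ritonavir array and 12.50 on the DMSO array, 35.9-fold apart, against 13.54 with ethanol, 13.52 with tenofovir, 12.63 with c9,t11-CLA and 10.29 with t10,c12-CLA. The table used has more than 1 promoter window for Cidec, and the one shown was chosen because it holds a match to the C/EBP site that the adipogenic CEBP factors bind (in capitals), at chr6:113434715-113435014 on the minus strand of GRCm38.p6, from RefSeq. The other window, at chr6:113435711-113436010 on the same strand, holds no match:
Cidec: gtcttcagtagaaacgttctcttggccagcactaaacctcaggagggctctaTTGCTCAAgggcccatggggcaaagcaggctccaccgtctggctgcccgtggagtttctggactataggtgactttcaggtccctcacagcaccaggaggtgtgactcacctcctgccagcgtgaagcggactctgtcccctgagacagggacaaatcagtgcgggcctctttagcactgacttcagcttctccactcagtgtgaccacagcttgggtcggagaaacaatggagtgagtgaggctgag
The motif searched was TTGCNNAA on both strands, in windows of 300 bases around annotated transcript starts. It occurred in 2 of the 11 adipocyte markers with a promoter in the table used (18.2%), Cidec and Lep, against 12.2% of all 27025 genes with a promoter and 9.77% of the detected ones. The share was 10.9% among genes higher by 2-fold or more on the DMSO array, 12.6% among those lower by 2-fold or more and 12.5% among contractile genes. A match describes the letters of the window only.

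The remaining markers covered storage, transport and breakdown of lipid. Car3, carbonic anhydrase 3, differed by 3.51, but its other detected probe sets gave -0.01 and 2.18. Adig, which encodes adipogenin, differed by 3.54, Cd36, a fatty acid transporter, by 2.92 and Slc2a4, the insulin-responsive glucose transporter GLUT4, by 2.08. Fabp4, the fatty acid binding protein of fat cells, differed by 0.95, Aoc3 by 0.65, Lpl, lipoprotein lipase, by 0.30 and Plin4, a lipid droplet coat protein, by 0.17, none of them 2-fold. The Fabp4 and Lpl values lay near the top of the scale on both arrays, at 13.97 and 14.92 for Fabp4 and 14.64 and 14.95 for Lpl, where RMA values can be compressed. The other Fabp4 probe sets gave 1.90, 1.84 and 1.51. Lep and Pck1 were under the level of detection on both arrays, and Cfd and Plin1 were not named by the annotation used.

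**Figure D2:**
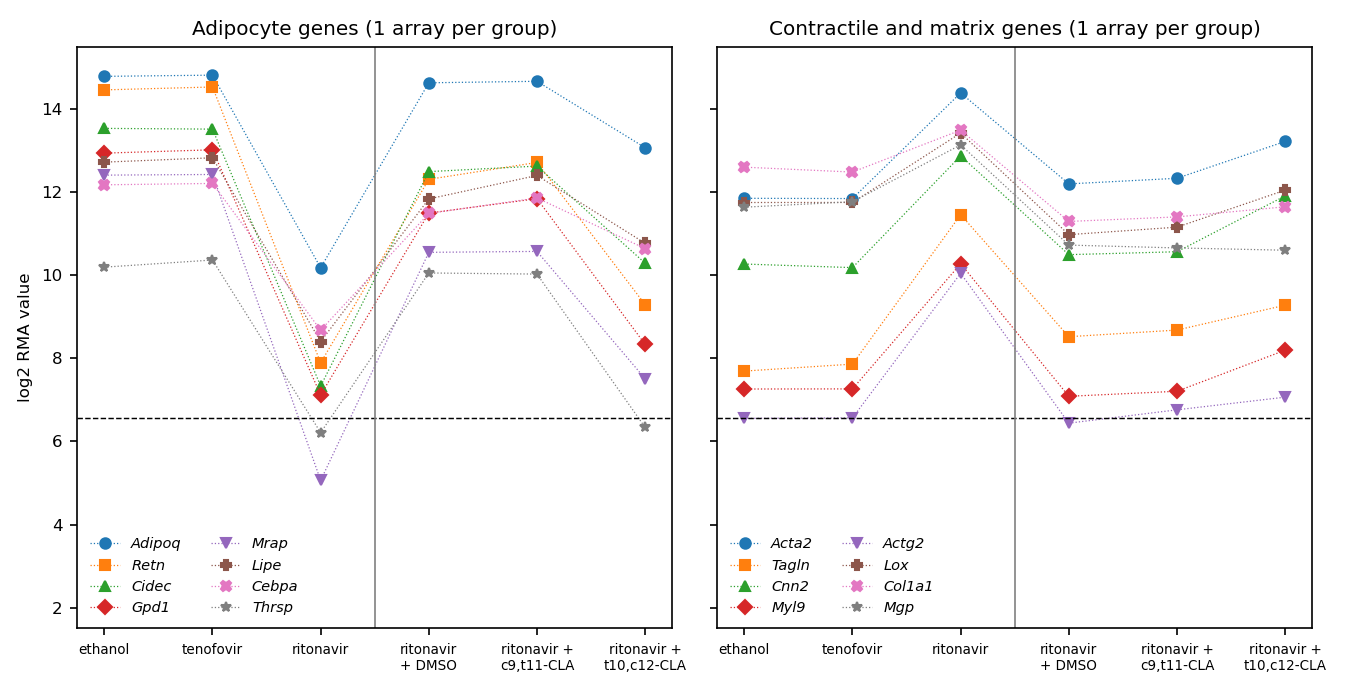
Log2 RMA values on the 6 arrays of 8 adipocyte genes (left) and 8 contractile and matrix genes (right), 1 point per array. The vertical line separates the first from the second experiment, the dashed line is the level of detection at 6.55, and dotted lines only link the points of a gene. Each gene on the left is lowest on the ritonavir array, and each gene on the right is highest there. The genes are a selection, and whole lists were less uniform. The ritonavir array was lowest for 15 of 17 mature adipocyte markers and 12 of 22 adipogenic transcription factors. It was highest for 15 of 20 contractile genes and 4 of 8 fibrillar collagens.

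Among the transcription factors of adipogenesis, Pparg and Cebpa were higher on the DMSO array, and the early factors Cebpb and Cebpd were not 2-fold apart. Of 22 detected, 5 were higher by 2-fold or more and 0 lower, at a median difference of 0.14, which became 0.33 with a stricter filter on detection. Cebpa read 8.68 on the ritonavir array and 11.49 on the DMSO array, against 12.18 with ethanol, 12.21 with tenofovir, 11.86 with c9,t11-CLA and 10.65 with t10,c12-CLA, a difference of 2.81. Pparg, the receptor that is required for fat cell formation, read 10.48 and 11.89, against 12.97, 12.95, 12.09 and 11.25 on the other arrays in that order, a difference of 1.41. For both, ritonavir alone was lowest and the DMSO array lay under ethanol. Klf15 differed by 2.41, Nr1h3, which encodes the oxysterol receptor LXR alpha, by 1.86 and Ebf2 by 1.08. The early factors Cebpb at -0.24, Cebpd at -0.45 and Klf5 at 0.01 were within 1.5-fold, as were Klf4 at -0.55, Srebf1 at 0.44, Rxra at 0.22 and Gata2, an inhibitor of adipogenesis, at -0.43. Id2 was the lowest at -0.97.

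Triglyceride synthesis and its supply of glycerol were higher along most of the pathway. Of 14 detected genes 7 were higher by 2-fold or more and 0 lower, at a median difference of 1.16. With low values raised, 6 were higher and the median was 0.77. Gpd1, which makes glycerol 3-phosphate, read 7.12 on the ritonavir array and 11.50 on the DMSO array, against 12.94 with ethanol, 13.02 with tenofovir, 11.85 with c9,t11-CLA and 8.34 with t10,c12-CLA. The difference was 4.38, and its other probe sets gave 2.30 and 0.46. Ritonavir alone gave the lowest value of the 6. Among the enzymes that add and trim acyl chains, Gpat3 differed by 2.40, Agpat2 by 2.33, Lpin1 by 2.09 and Dgat1 by 1.43. Agpat1, Lpin2 and Gpd2 lay between 0.03 and 0.20, and Gpam, Gpat4 and Dgat2 lay between 0.65 and 0.89. Of 15 lipid droplet proteins, 4 were higher by 2-fold or more (Cidec, G0s2 at 2.79, Fitm2 at 1.48 and Bscl2, the seipin gene, at 1.04), and the median was 0.17. Plin2 differed by 0.39, Plin3 by -0.61 and the caveolar genes Cav1 and Cavin1 by 0.19 and 0.17.

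Genes that break down stored fat were higher together with those that build it. Of 10 detected lipolysis genes, 6 were higher by 2-fold or more and 0 lower, at a median difference of 1.61. Lipe, hormone-sensitive lipase, read 8.41 on the ritonavir array and 11.84 on the DMSO array, against 12.73 with ethanol, 12.83 with tenofovir, 12.41 with c9,t11-CLA and 10.77 with t10,c12-CLA. Pnpla2, the triglyceride lipase ATGL, differed by 2.19, its activator Abhd5 by 1.12 and its inhibitor G0s2 by 2.79. Activating and inhibitory members were thus both higher on the DMSO array. Lgals12 differed by 2.55 and Pde3b, the phosphodiesterase through which insulin restrains lipolysis, by 2.10.

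Genes of fatty acid synthesis and desaturation were higher in part. Of 19 detected genes, 6 were higher by 2-fold or more and 0 lower, at a median difference of 0.56. Thrsp, a lipogenic regulator, was under the level of detection on the ritonavir array at 6.21 and read 10.06 on the DMSO array, against 10.20 with ethanol, 10.37 with tenofovir, 10.03 with c9,t11-CLA and 6.34 with t10,c12-CLA. Its difference was 3.50 with the low value raised, and DMSO and c9,t11-CLA lay close to ethanol while t10,c12-CLA lay with ritonavir alone. Other detected Thrsp probe sets gave smaller differences of 2.13 and 0.12, and read 7.12 and 7.04 on the ritonavir array, over the level of detection. Acss2 differed by 1.80, the stearoyl-CoA desaturase Scd1 by 1.72, the desaturase Fads2 by 1.20 and fatty acid synthase, Fasn, by 1.07. Acly, Acaca, Acacb, Elovl5 and Elovl6 lay between 0.03 and 0.44. In fatty acid uptake and activation, 4 of 14 were higher by 2-fold or more, at a median difference of 0.54, among them Angptl4, an inhibitor of lipoprotein lipase, at 1.33 and the acyl-CoA binding protein Dbi at 1.09.

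Secreted factors, insulin signalling genes and receptors of the fat cell were also higher on the DMSO array, by their medians. Of 16 adipokines and secreted factors 6 were higher by 2-fold or more, 5 with low values raised, and 0 lower, at a median difference of 0.94. Beside Adipoq and Retn they were Itih4 at 2.51, Orm1 at 2.09, Hp, haptoglobin, at 1.08 and Inhbb at 1.92, the last of which was under the level of detection on the ritonavir array and differed by 0.66 when raised. Of 19 insulin signalling genes 4 were higher by 2-fold or more and 1 lower, at a median difference of 0.30. Irs2, an insulin receptor substrate, differed by 1.32 and Trarg1, a regulator of GLUT4 traffic, by 1.41, whereas the receptor gene Insr differed by 0.47, Akt2 by 0.38 and Foxo1 by 0.02. Grb14, an inhibitor of the insulin receptor, differed the other way. It read 10.57 on the ritonavir array and 8.89 on the DMSO array, against 8.98 with ethanol, 9.22 with tenofovir, 8.84 with c9,t11-CLA and 9.33 with t10,c12-CLA, a difference of -1.67, and ritonavir alone was the highest.

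Of 11 hormone and metabolite receptors, 5 were higher by 2-fold or more and 0 lower, at a median difference of 0.86 that became 0.25 with low values raised. The receptors for hydroxycarboxylic acids Hcar2 and Hcar1, which restrain lipolysis, were under the level of detection on the ritonavir array and differed by 1.94 and 0.84 when raised. Ffar2, a receptor for short-chain fatty acids, read 7.79 on the ritonavir array and 10.37 on the DMSO array, a difference of 2.58, and Adipor2, an adiponectin receptor, differed by 1.23. Further genes outside the lists were among the 12 with the largest upward differences. They were Fcor, a repressor of the factor FOXO1, at 3.54, Ubd, a ubiquitin-like protein, at 3.41, and Tmem182, which was under the level of detection on the ritonavir array and differed by 1.93 when raised.

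Contractile genes were lower on the DMSO array. Of 20 detected smooth muscle contractile genes, 8 were lower by 2-fold or more and 0 higher, at a median difference of -0.70, and 18 of the 20 differences were below 0. The ritonavir array was the highest of the 6 for 15 of the 20, against 25% of all detected genes. Their mean level was 10.50 on the ritonavir array and 9.36 on the DMSO array, against 9.66 with ethanol.

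Acta2 and Actg2 encode the smooth muscle actins. Acta2 read 14.39 on the ritonavir array and 12.20 on the DMSO array, 4.56-fold apart, against 11.86 with ethanol, 11.85 with tenofovir, 12.34 with c9,t11-CLA and 13.22 with t10,c12-CLA. Actg2 read 10.05 on the ritonavir array and was under the level of detection on the DMSO array at 6.44, against 6.56 with ethanol, 6.57 with tenofovir, 6.76 with c9,t11-CLA and 7.07 with t10,c12-CLA. Its difference of -3.61, or -3.50 with the low value raised, was the largest downward difference of a gene with a name. Both actins were highest with ritonavir alone, next highest with t10,c12-CLA, and on the DMSO array close to ethanol. Tagln, transgelin, which binds actin filaments, read 11.46 on the ritonavir array and 8.52 on the DMSO array, 7.67-fold apart, against 7.70 with ethanol, 7.86 with tenofovir, 8.68 with c9,t11-CLA and 9.28 with t10,c12-CLA. The tropomyosins, which wind along actin filaments, were lower too, with Tpm1 at -1.71, Tpm2 at -1.50 and Tpm4 at -1.36.

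Myl9, a regulatory light chain of myosin, and Cnn2, a calponin, had a CArG box in the promoter window. Myl9 read 10.28 on the ritonavir array and 7.09 on the DMSO array, 9.14-fold apart, against 7.26 with ethanol, 7.27 with tenofovir, 7.21 with c9,t11-CLA and 8.20 with t10,c12-CLA. Cnn2 read 12.88 on the ritonavir array and 10.50 on the DMSO array, 5.20-fold apart, against 10.27 with ethanol, 10.19 with tenofovir, 10.57 with c9,t11-CLA and 11.91 with t10,c12-CLA. Both were highest with ritonavir alone and near the ethanol level with DMSO. The windows are shown with the box in capitals, for Myl9 at chr2:156775214-156775513 on the plus strand and Cnn2 at chr10:79988350-79988649 on the plus strand. They stand beside Myl6, a light chain whose window at chr10:128492960-128493259 on the minus strand also holds a box but whose difference was only -0.33 (RefSeq, GRCm38.p6). A second window of Myl6, at chr10:128493837-128494136, holds no box:
Myl9: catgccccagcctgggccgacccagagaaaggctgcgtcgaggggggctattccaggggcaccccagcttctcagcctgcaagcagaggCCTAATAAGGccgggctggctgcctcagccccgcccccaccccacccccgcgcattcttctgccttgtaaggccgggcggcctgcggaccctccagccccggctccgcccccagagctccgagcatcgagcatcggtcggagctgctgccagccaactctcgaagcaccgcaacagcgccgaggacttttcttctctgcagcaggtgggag
Cnn2: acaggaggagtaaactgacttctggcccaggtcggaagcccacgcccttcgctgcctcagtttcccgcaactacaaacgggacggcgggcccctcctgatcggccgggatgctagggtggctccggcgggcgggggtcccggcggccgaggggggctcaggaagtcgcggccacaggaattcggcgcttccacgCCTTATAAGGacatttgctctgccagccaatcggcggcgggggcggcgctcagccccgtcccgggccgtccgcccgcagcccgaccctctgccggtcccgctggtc
Myl6: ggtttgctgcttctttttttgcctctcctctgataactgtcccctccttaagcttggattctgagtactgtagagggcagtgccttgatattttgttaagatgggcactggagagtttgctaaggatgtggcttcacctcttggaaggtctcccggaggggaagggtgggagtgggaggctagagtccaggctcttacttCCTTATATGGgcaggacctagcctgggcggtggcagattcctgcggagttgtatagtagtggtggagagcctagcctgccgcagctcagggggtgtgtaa
The box begins 161 bases before the annotated transcript start in Myl9, 56 in Cnn2 and 50 in Myl6. The pattern searched on both strands was CC, then 6 letters that are each A or T, then GG. Forms with a mismatch were not searched, so a window without a match, such as that of Acta2, can still hold a looser box. The exact form was found in 3 of the 16 contractile genes with a promoter in the table (18.8%). Across all 27025 genes the share was 1.81%, and across the detected ones 1.59%. Among the genes lower by 2-fold or more on the DMSO array the share was 10 of 183 (5.46%), and among those higher by 2-fold or more 6 of 266 (2.26%). The TEAD site GGAATG was found in 6 of the 16 contractile genes (37.5%), against 16.6% of all genes. The boxes of Myl9 and Cnn2 stand in genes that were lower and that of Myl6 in a gene that was not 2-fold apart.

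The other contractile genes were not 2-fold apart on the probe set used. Myh11, smooth muscle myosin, was under the level of detection on the ritonavir array and differed by 0.22 when raised, Des, desmin, differed by 0.61, and Cnn1 and Myocd did not reach the level of detection on any array. Cald1, Mylk, Smtn, Cnn3 and Pdlim7 were lower by more than 1.5-fold, between -0.87 and -0.62, and Lmod1 lay at -0.26. Other detected probe sets of these genes gave as much as -1.58 for Cald1, -1.24 for Mylk, -1.09 for Cnn3 and -1.02 for Pdlim7, and 1 probe set of Cald1 gave 0.06. Of 10 pericyte and vascular smooth muscle markers 5 were detected, at a mean of 6.92 on the ritonavir array and 7.45 on the DMSO array. Mcam was higher on the DMSO array by 2.54 with its low ritonavir value raised, and Notch3 lower by 1.15, so this list held no common direction.

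Genes of the wider cytoskeleton were also lower, with smaller differences. Of 27 genes of actin and focal adhesion 5 were lower by 2-fold or more and 0 higher, at a median difference of -0.47, and 25 of the 27 lay below 0. The median became -0.72 with only the probe sets that carry no cross-hybridising suffix. Flna, filamin A, which crosslinks actin, read 12.14 on the ritonavir array and 10.82 on the DMSO array, against 10.65 with ethanol, and differed by -1.32. Tns3 differed by -1.25, the non-muscle myosin Myh9 by -1.19, the integrin Itgb1 by -1.04 and Actn1, alpha-actinin, by -1.01. Actb, the actin of the cytoplasm, differed by -0.20, Actg1 by -0.41 and Vcl, vinculin, by -0.38.

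Among SRF and MRTF factors and their targets, 7 of 15 were lower by 2-fold or more and 0 higher, at a median difference of -0.92. The factors differed little, with Srf at -0.25, Mrtfa at -0.42 and Mrtfb at -0.03. The 2-fold members were Cnn2 and Tpm1 together with Fhl2 at -1.58, Filip1l at -1.53, Tgfb1i1 at -1.19, Egr1 at -1.13 and Fhl1 at -1.06. Fos, another SRF target, differed by 0.91 in the other direction. Of 18 YAP and TEAD factors and targets 3 were lower by 2-fold or more, at a median difference of -0.30, and the factors Yap1, Wwtr1 and Tead1 differed by -0.34, -0.13 and -0.53. Ccn1, a secreted matricellular protein and YAP target, read 11.09 on the ritonavir array and 8.81 on the DMSO array, against 9.60 with ethanol, 9.55 with tenofovir, 8.93 with c9,t11-CLA and 11.03 with t10,c12-CLA. It was as high with t10,c12-CLA as with ritonavir alone. Vgll3 differed by -1.89 and Axl, a receptor tyrosine kinase, by -1.13.

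Matrix genes were lower on the DMSO array in several lists. Of 16 detected matricellular genes, 9 were lower by 2-fold or more and 0 higher, at a median difference of -1.08. The ritonavir array was the highest of the 6 for 13 of the 16. Fbln7, fibulin 7, read 10.05 on the ritonavir array and 7.21 on the DMSO array, against 6.17 with ethanol, 6.37 with tenofovir, 6.95 with c9,t11-CLA and 6.87 with t10,c12-CLA, a difference of -2.84. Ritonavir alone was highest and the ethanol value was under the level of detection. Thbs1, thrombospondin 1, differed by -2.02, Tnc, tenascin C, by -1.77, Ccn4 by -1.64, Ccn5 by -1.40, Postn, periostin, by -1.31 and Fn1, fibronectin, by -1.04. A further detected Fn1 probe set gave -3.09. Sparc differed by -0.14, and Ccn2 was under the level of detection on both arrays.

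Of 22 proteoglycan and elastic fibre genes, 7 were lower by 2-fold or more and 0 higher, at a median difference of -0.34, which became -0.18 without the filter on detection and -0.73 with a stricter one. Mgp, matrix Gla protein, an inhibitor of calcification, read 13.14 on the ritonavir array and 10.73 on the DMSO array, against 11.64 with ethanol, 11.77 with tenofovir, 10.66 with c9,t11-CLA and 10.61 with t10,c12-CLA. Ritonavir alone was the highest, and all 3 arrays of the second experiment lay below ethanol. Fbln1 differed by -2.36, with other probe sets at -1.65 and -0.01. Of the small leucine-rich proteoglycans Ogn differed by -1.70, Dcn, decorin, by -1.47 and Lum, lumican, by -1.45, while Bgn, biglycan, differed by -0.18 and Aspn by 0.23. The elastic fibre genes Eln and Fbln5 were at 0.01 and -0.01.

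Fibrillar collagens were lower on the DMSO array. Of 8 fibrillar collagens 2 were lower by 2-fold or more and 0 higher, at a median difference of -0.54, which became -0.87 when all probe sets of a gene were averaged, and all 8 lay below 0. Col1a1 read 13.50 on the ritonavir array and 11.30 on the DMSO array, against 12.61 with ethanol, 12.49 with tenofovir, 11.41 with c9,t11-CLA and 11.65 with t10,c12-CLA, a difference of -2.20. The DMSO value was the lowest of the 6, below cells without ritonavir. Col1a2, its partner chain in type I collagen, differed by -0.38 on the probe set used, which read 14.60 on the ritonavir array near the top of the scale, and by -0.83 and -2.96 on its other detected probe sets. Col3a1 differed by -0.45, with another probe set at -1.70, and Col11a1 by -1.35. The mean level of the fibrillar collagens was 11.99 on the ritonavir array, 11.23 on the DMSO array, 12.03 with ethanol and 11.95 with tenofovir, and it was 11.35 and 11.17 with c9,t11-CLA and t10,c12-CLA. On this list ritonavir alone read close to ethanol, and all 3 arrays of the second experiment were lower.

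Of 12 other collagens 2 were lower by 2-fold or more, Col16a1 at -1.34 and Col12a1 at -1.29, and 1 higher. Col15a1, a basement membrane zone collagen, read 7.49 on the ritonavir array and 8.88 on the DMSO array, against 9.67 with ethanol, 9.55 with tenofovir, 9.16 with c9,t11-CLA and 7.89 with t10,c12-CLA. It ran with the adipocyte genes in direction. The network collagens of basement membranes Col4a1 and Col4a2 differed by -0.22 and -0.30, and the type VI chains Col6a1, Col6a2 and Col6a3 by -0.12, 0.16 and 0.17. Laminins and nidogens had a median of -0.02 over 10 genes. One of them, Lamb3, was 2-fold higher, and 0 with low values raised; Lama2, Lama4, Lamb1 and Nid2 were within 0.02 of 0.

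Enzymes that crosslink and remodel collagen included some of the largest downward differences. Lox, lysyl oxidase, read 13.43 on the ritonavir array and 10.98 on the DMSO array, against 11.76 with ethanol and with tenofovir, 11.16 with c9,t11-CLA and 12.05 with t10,c12-CLA, a difference of -2.45. It was highest with ritonavir alone and lowest with DMSO. Loxl3 differed by -1.74 and P4ha2, a prolyl hydroxylase, by -1.08, and these were the 3 of 18 processing genes lower by 2-fold or more, with 0 higher and a median of -0.20. Loxl1, Serpinh1 and P4hb lay between -0.22 and -0.07. Of 19 matrix proteases and inhibitors 7 were lower by 2-fold or more, 6 with low values raised, and 0 higher, at a median difference of -0.50. Plat, tissue plasminogen activator, read 9.52 on the ritonavir array and 7.13 on the DMSO array, against 7.10 with ethanol, 7.17 with tenofovir, 7.27 with c9,t11-CLA and 8.53 with t10,c12-CLA. Some proteases and some of their inhibitors were lower, with the gelatinase Mmp2 at -1.51, Adamts1 at -1.43, Adamts5 at -1.18, Timp1 at -1.90 and Timp2 at -1.13, whereas Mmp14, the membrane protease that activates MMP2, differed by -0.48. In the other direction 5 of the 19 lay above 0, among them the proteases Adamts12 at 0.70 and Mmp13, which was under the level of detection on the ritonavir array, at 0.52 when raised.

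Some genes of the signals that act on fibroblasts were lower on the DMSO array. Of 22 TGF-beta, activin and BMP genes 4 were lower by 2-fold or more and 1 higher, 0 with low values raised, at a median difference of -0.25. Grem1, a BMP antagonist, read 9.60 on the ritonavir array and 7.16 on the DMSO array, against 7.02 with ethanol, 6.98 with tenofovir, 7.41 with c9,t11-CLA and 8.10 with t10,c12-CLA. Fst, follistatin, which binds activin, differed by -1.90, Inhba, the activin A subunit, by -1.34 and Id3, a BMP target, by -1.13. Tgfb1 differed by 0.33, Tgfbr2 by -0.17 and Smad3 by -0.38. Of 12 Wnt ligands and antagonists, Sfrp2, a secreted Wnt antagonist, was the member 2-fold lower at -2.08, and the median was -0.06.

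Of 17 markers of preadipocytes and fibroblasts 4 were lower by 2-fold or more and 0 higher, at a median difference of -0.70. Thy1 read 10.39 on the ritonavir array and 8.26 on the DMSO array, against 8.71 with ethanol, 8.82 with tenofovir, 8.55 with c9,t11-CLA and 8.94 with t10,c12-CLA. Dlk1, the preadipocyte factor that holds back differentiation, read 12.57 on the ritonavir array and 10.91 on the DMSO array, against 12.68 with ethanol, 12.61 with tenofovir, 11.08 with c9,t11-CLA and 11.23 with t10,c12-CLA. Thy1 was highest with ritonavir alone, whereas Dlk1 was as high with ethanol as with ritonavir and lower on all 3 arrays of the second experiment. Zfp521 differed by -1.39, Pdgfrb by -1.25 and Pdgfra by -0.77, and Fgf10 by 0.86 in the other direction.

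**Figure D3:**
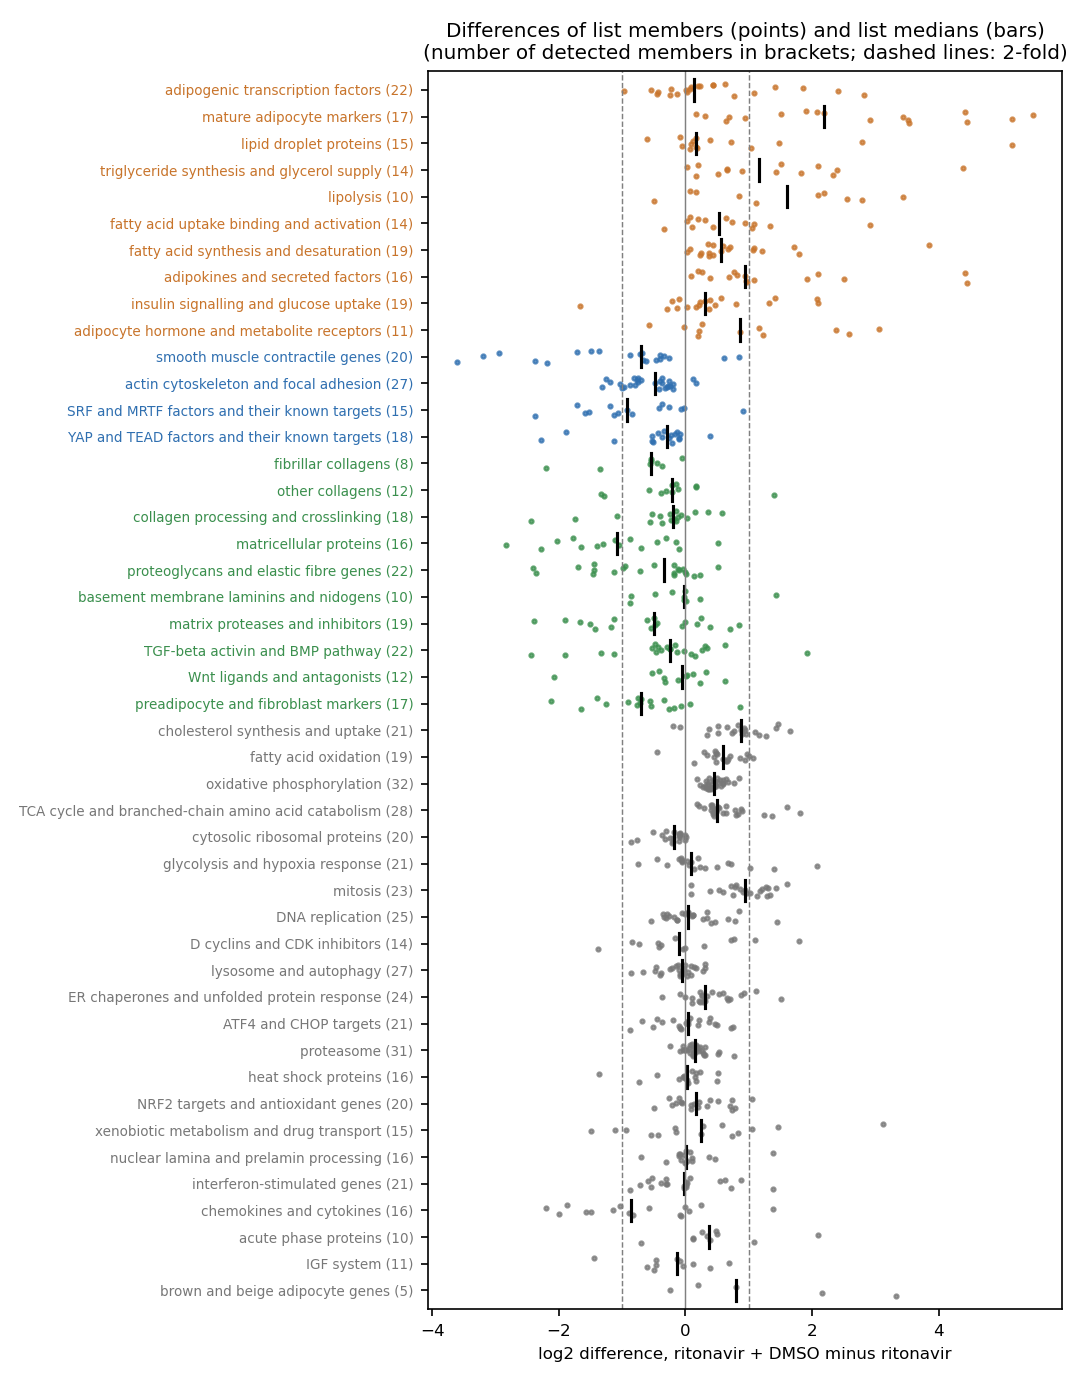
Log2 difference, DMSO array minus ritonavir array, of each detected member (points) of the gene lists, with list medians as black bars and the number of members in brackets. Orange lists are adipocyte, blue contractile, green matrix and grey others, and dashed lines mark 2-fold. The largest median is that of mature adipocyte markers at 2.19, and the lowest that of matricellular proteins at -1.08.

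Outside fat storage, genes of cholesterol synthesis, mitochondria and mitosis were also higher on the DMSO array. Of 21 cholesterol genes 6 were higher by 2-fold or more and 0 lower, at a median difference of 0.87, or 0.51 with all probe sets of a gene averaged, led by Insig1, which restrains the pathway, at 1.65 and the enzymes Tm7sf2 at 1.47 and Pmvk at 1.43. Of 32 oxidative phosphorylation genes 0 were 2-fold apart, yet all 32 lay above 0, between 0.18 for Uqcrb and 0.85 for Uqcrfs1, at a median difference of 0.44. Of 19 fatty acid oxidation genes 2 were higher by 2-fold or more, Cpt2 and Etfb, at a median difference of 0.59, and Cpt1a, which admits fatty acids to the mitochondrion, differed by 0.59. All 28 genes of the TCA cycle and branched-chain amino acid breakdown lay above 0, at a median difference of 0.50, and 4 were higher by 2-fold or more, among them Dbt at 1.80, Pcx, pyruvate carboxylase, at 1.61 and Aldh6a1 at 1.36. The mean level of the oxidative phosphorylation genes was 12.89 on the ritonavir array and 13.35 on the DMSO array, against 13.30 with ethanol.

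Of 23 mitosis genes 10 were higher by 2-fold or more and 0 lower, at a median difference of 0.94. Their mean level was 7.76 on the ritonavir array and 8.68 on the DMSO array, against 9.88 with ethanol, 9.79 with tenofovir, 9.11 with c9,t11-CLA and 8.51 with t10,c12-CLA. Ube2c differed by 1.60, Nusap1 by 1.44, Birc5 by 1.34 and Mki67, the proliferation marker, by 1.30. Ritonavir alone was the lowest of the 6 for 22 of the 23, and the DMSO array lay under ethanol. Genes of DNA replication had a median of 0.04 over 25 genes. Ccne2 was the 1 member 2-fold higher, against 2.83% of all detected genes. The minichromosome maintenance genes Mcm2, Mcm4 and Mcm6 lay between -0.34 and -0.26. Ccnd1, cyclin D1, was lower by 1.39 and Cdkn2c, a CDK inhibitor induced in adipogenesis, higher by 1.79.

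Genes of protein folding in the endoplasmic reticulum were higher by a smaller median than those of mitosis or cholesterol synthesis. Of 24 genes of the ER chaperones and unfolded protein response 2 were higher by 2-fold or more, Dnajb9 at 1.51 and Xbp1 at 1.11, at a median difference of 0.30, and the chaperone gene Hspa5 differed by 0.34. On this list 21 of the 24 lay above 0 and 8 were higher by 1.5-fold or more.

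Chemokines and cytokines ran with the contractile and matrix genes in direction. Of 16 detected, 7 were lower by 2-fold or more, 6 with low values raised, and 1 higher, at a median difference of -0.86, which became -0.18 without the filter on detection. Cxcl5, which attracts neutrophils, read 10.01 on the ritonavir array and 7.81 on the DMSO array, against 7.52 with ethanol, 7.69 with tenofovir, 7.87 with c9,t11-CLA and 8.89 with t10,c12-CLA. Il6, an inflammatory cytokine, read 8.79 on the ritonavir array and 6.92 on the DMSO array, a difference of -1.88, against 5.42 with ethanol, 5.56 with tenofovir, 6.36 with c9,t11-CLA and 7.59 with t10,c12-CLA. Of the 6 Il6 values, those with ethanol, tenofovir and c9,t11-CLA were under the level of detection. Ccl7 differed by -1.99, Ccl9 by -1.56, Csf1 by -1.49 and Cxcl1 by -1.15, while Ccl2 at -0.83 was not 2-fold lower. Cxcl10, an interferon-induced chemokine, differed by 1.38 the other way. It was the only one of 21 interferon-stimulated genes 2-fold apart, against 2.83% higher and 2.07% lower among all detected genes. The median of the interferon-stimulated list was -0.02. Gbp8, which was not on that list, was lower by 2.25 with its low DMSO value raised.

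Several programs differed little between the arrays, as did most detected genes. Of all detected genes 2.83% were higher and 2.07% lower by 2-fold or more, and 14.6% lay 1.5-fold apart either way. Low counts on the lists below are therefore not particular to them. Of 27 lysosome and autophagy genes 0 were 2-fold apart and 25 lay within 1.5-fold, at a median difference of -0.05 and extremes of -0.87 for Ctsk and 0.32 for Mcoln1. Their mean level was 12.04 on the ritonavir array, 11.93 on the DMSO array and 11.96 and 12.09 with the CLA isomers, against 11.37 with ethanol and 11.38 with tenofovir, so on this list the 4 arrays with ritonavir lay together. Of 21 ATF4 and CHOP targets 0 were 2-fold apart, at a median difference of 0.04. Ddit3, which encodes CHOP, read 13.69 on the ritonavir array and 13.58 on the DMSO array, against 11.99 with ethanol, 12.09 with tenofovir, 13.39 with c9,t11-CLA and 13.41 with t10,c12-CLA. The probe set used was high on all 4 arrays with ritonavir, and another detected Ddit3 probe set gave a difference of -1.05.

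Of 31 proteasome genes 0 were 2-fold apart, 30 lay within 1.5-fold and the median was 0.15. NRF2 targets had a median of 0.17 over 20 genes. Of these, 5 were higher by 1.5-fold or more and 0 lower, against 14.6% of all detected genes in either direction. Taldo1 was the member 2-fold higher, at 1.05, against 2.83% of all detected genes. Heat shock genes had a median of 0.03 over 16, with Hspb6, a small heat shock protein, lower by 1.36. Nuclear lamina genes had a median of 0.00 over 16, Zmpste24, the prelamin A protease, differed by 0.01 and Lmna, which encodes lamin A, by -0.69. Syne2 was the member 2-fold higher, at 1.39, and was not 2-fold apart with low values raised. Cytosolic ribosomal proteins lay slightly below 0, 19 of 20 of them, at a median difference of -0.19 and 0 genes 2-fold apart.

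**Figure D4:**
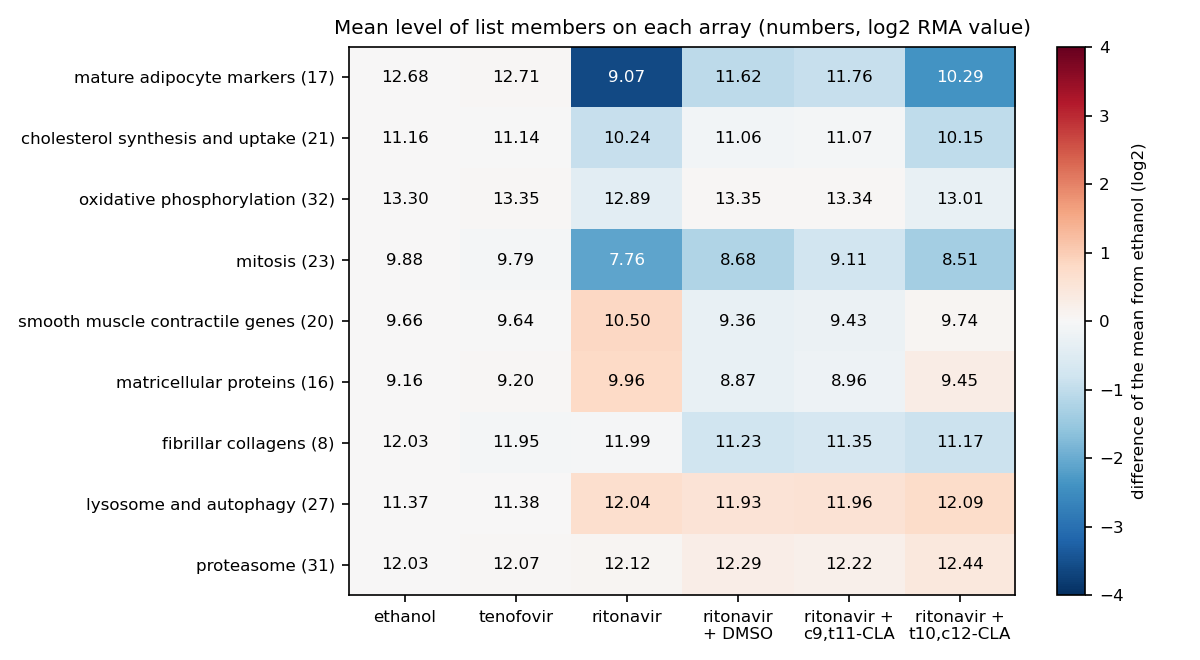
Mean log2 RMA level of the detected members of 9 gene lists on each of the 6 arrays (numbers), coloured by the difference from the ethanol array; the number of members is in brackets. On the ritonavir array adipocyte markers and mitosis genes are lowest and contractile and matricellular genes highest, whereas lysosome genes read between 11.93 and 12.09 on all 4 arrays with ritonavir.

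Markers of other cell types were few and near equal on both arrays. Of 10 macrophage markers 5 were detected, at a mean of 7.58 on the ritonavir array and 7.69 on the DMSO array, and Adgre1, Itgam, Mrc1, Ptprc and Tyrobp reached the level of detection on no array. Of 10 endothelial markers 3 were detected, at 7.41 and 7.43, and Pecam1, Cdh5 and Vwf were among those not detected. Skeletal and cardiac muscle markers, 5 of 12 detected, read 7.07 and 7.12 without Myod1 and Myog, and bone and cartilage markers, 5 of 12, read 7.10 and 6.998. Epithelial markers, 8 of 10, read 6.74 and 6.72 with 5 of the 8 under the level of detection on both arrays. These lists had medians between -0.11 and 0.10.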

How the data were processed

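Mouse Genome arrays carried RNA pooled from 4 replicate experiments, 1 array per group. The deposited log2 values are RMA values made by the authors in Affymetrix Expression Console, per the submitters' processing notes, whose version the sources used here do not give. Because RMA makes the arrays' distributions equal, a shift common to most genes is removed. Precision is limited by having 1 array per group.

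The table held 45101 probe sets, of which 34958 had 1 gene symbol in the platform annotation; the 932 with several symbols and the 9211 absent from the annotation were left out. This gave 18194 genes, each read from the probe set that was brightest on average over the arrays. Genes at or over the table's median of 6.55 on at least 1 array counted as detected; the table has no detection calls, so this level is a convention. The log2 difference of the 2 arrays was taken, genes at least 2-fold apart were counted, also with low values raised to the level, and medians were taken over 52 gene lists with 998 symbols, 929 of them named on the array and 818 detected. Members not named or not detected did not enter. Of the genes 2-fold apart, 94 were under the level on 1 array and 13 on both. Of the 167 listed or top genes 2-fold apart, 64 had another detected probe set, and 3 (Car3, Inhbb and Kif2c) had one of opposite sign.

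Named genes were the 12 largest each way without clone symbols, up to 3 each way per list, and any detected member of the adipocyte, contractile and matrix lists. In passages on genes within a range, the members named were chosen after their values were seen. The comparison, members and lists were chosen with earlier results of these data known. Promoter windows came from RefSeq (GRCm38.p6) by symbol, for 10009 of the detected genes. The alternatives were other probe set choices, detection filters, normalizations, arrays of the second experiment and fold thresholds. The steps were tested on simulated data. Scripts ran in Python 3.11.15 with pandas 2.3.3, numpy 2.4.6, matplotlib 3.10.9 for figures, statsmodels 0.14.6 for the lowess and scipy 1.17.1.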

Additional observations from a re-analysis of the deposited data

How the results depend on the processing

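No result was tested, and with 1 array per group no replicate could be left out. No paired analysis was possible because each group is 1 array and the labels give no replicate numbers. With no replicates, a median counted as moved when it shifted by 0.113 or more, the robust SD between the tenofovir and ethanol arrays, a measure taken after these data were seen. Under the 10 alternatives other than fold thresholds, the counts of genes 2-fold apart stayed within 1.5 times, between 265 and 423 higher and between 180 and 264 lower. At 1.5-fold they were 1044 and 766, and at 3-fold 125 and 63.

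The list medians of adipocyte markers, contractile genes, matricellular proteins and fibrillar collagens kept their sign under all 10. That of xenobiotic metabolism reversed, from 0.24 to -0.161 without the cross-hybridising suffixes and to -0.105 with the c9,t11-CLA array, and so did Cenpa, from 1.18 to -0.255 without the suffixes. The cause was not tested. Repeated quantile normalization and removal of the lowess trend (span 0.3) moved 0 of 52 medians. RMA had already made the distributions equal, so the repeated quantile step could move little. A change of sign in a median smaller than 0.113 was not counted as a reversal. Differences of single genes moved more often by the same measure. Of the 167 listed or top genes 2-fold apart, 60 moved with all probe sets of a gene averaged. With the c9,t11-CLA array in place of the DMSO array 99 moved, and with the mean of the 3 arrays of the second experiment 138. With all probe sets of a gene averaged, the median became 1.930 for mature adipocyte markers, 0.818 for triglyceride synthesis, 1.282 for lipolysis, 0.436 for fatty acid synthesis, -0.872 for fibrillar collagens, 0.513 for cholesterol and 0.674 for mitosis. It also became 1.484 for brown and beige genes. With only probe sets without cross-hybridising suffixes, the median became 0.773 for triglyceride synthesis, 1.466 for lipolysis, 1.010 for adipocyte receptors, -0.957 for contractile genes, -0.721 for actin and focal adhesion, -0.696 for fibrillar collagens and -0.419 for ribosomal proteins. It also became 0.218 for glycolysis and hypoxia, 0.789 for mitosis and -0.467 for the IGF system. Without a detection filter, the median became 1.995 for mature adipocyte markers, 0.773 for triglyceride synthesis, 0.361 for adipocyte receptors, -0.963 for matricellular proteins, -0.177 for proteoglycans and elastic fibres, -0.556 for preadipocyte markers and -0.177 for chemokines. It also became 0.075 for brown and beige genes and -0.044 for endothelial markers. With detection at the 75th percentile (8.77), the median became 0.329 for adipogenic transcription factors, 2.554 for mature adipocyte markers, 0.888 for triglyceride synthesis, 2.096 for lipolysis, 1.160 for adipocyte receptors, -0.869 for contractile genes and -0.477 for YAP and TEAD targets. It also became -1.396 for matricellular proteins, -0.726 for proteoglycans and elastic fibres, -0.217 for laminins, -1.150 for chemokines, 1.484 for brown and beige genes, 0.615 for muscle markers and -0.563 for bone markers. It also became 3.105 for pericyte markers. At this level the values for muscle, bone and pericyte markers are those of single genes, Des, Sox9 and Mcam, the only members that passed. With detection on 1 or both of the arrays compared, the median became 2.917 for mature adipocyte markers, 0.888 for triglyceride synthesis, 0.711 for adipocyte receptors and -0.503 for proteoglycans and elastic fibres. With low values raised, the median became 0.773 for triglyceride synthesis, 0.249 for adipocyte receptors and -0.705 for chemokines. With the c9,t11-CLA array in place of the DMSO array, the median became 0.285 for adipogenic transcription factors, 2.569 for mature adipocyte markers, 0.404 for lipid droplet proteins, 1.426 for triglyceride synthesis, 0.688 for fatty acid synthesis, 0.502 for insulin signalling and 0.991 for adipocyte receptors. It also became -0.647 for SRF and MRTF targets, -0.024 for collagen processing, -0.933 for matricellular proteins, -0.109 for the TGF-beta pathway, -0.577 for preadipocyte markers, 0.631 for the TCA cycle and branched-chain amino acids and 1.429 for mitosis. It also became 0.367 for DNA replication, 0.050 for D cyclins and CDK inhibitors, 0.095 for interferon-stimulated genes, -0.540 for chemokines, -0.068 for macrophage markers and 0.207 for pericyte markers. With the mean of the 3 arrays of the second experiment, the median became 1.998 for mature adipocyte markers, 0.878 for triglyceride synthesis, 1.323 for lipolysis, 0.361 for fatty acid uptake, 0.379 for fatty acid synthesis, 0.753 for adipokines and 0.704 for adipocyte receptors. It also became -0.642 for SRF and MRTF targets, -0.819 for matricellular proteins, -0.525 for preadipocyte markers, 0.500 for cholesterol, 0.312 for oxidative phosphorylation, 0.351 for the TCA cycle and branched-chain amino acids and 0.157 for DNA replication. It also became -0.119 for ATF4 and CHOP targets, 0.299 for NRF2 targets, -0.307 for chemokines, 0.230 for acute phase proteins, 0.642 for brown and beige genes and 0.217 for endothelial markers.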

Other observations

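Of 14 brown and beige adipocyte genes 5 were detected, and 2 of these were higher on the DMSO array by 2-fold or more, at a median difference of 0.80 that became 0.075 without the filter on detection. Ppargc1a, a coactivator of mitochondrial genes, differed by -0.25. Cox7a1, a muscle and brown fat form of a cytochrome c oxidase subunit, was under the level of detection on the ritonavir array and read 8.89 on the DMSO array, a difference of 2.33 when raised, and Cox8b differed by 2.11 when raised. Ucp1 and Dio2, which define thermogenic fat, reached the level of detection on no array. Sult1a1, a sulfotransferase, read 7.13 on the ritonavir array and 10.25 on the DMSO array, against 11.13 with ethanol, 11.10 with tenofovir, 10.46 with c9,t11-CLA and 7.64 with t10,c12-CLA. Ahr, the aryl hydrocarbon receptor, read 8.36 on the ritonavir array and 6.86 on the DMSO array, a difference of -1.50. Egln3, an oxygen-sensing hydroxylase, was higher by 2.08, while the glycolytic genes Gapdh, Ldha, Pgk1 and Aldoa lay between -0.05 and 0.13. The median difference was 0.095 over the 21 glycolysis and hypoxia genes, 0.365 over 10 acute phase genes, -0.10 over 14 D cyclins and CDK inhibitors and 0.24 over 15 genes of xenobiotic metabolism, of which 3 were higher and 2 lower by 2-fold or more. In the IGF system it was -0.14 over 11 genes, and Pappa, a protease of IGF binding proteins, was the member 2-fold lower, at -1.45.

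Some adipocyte, contractile and matrix genes near the top of the scale differed more on a less bright probe set. Among adipocyte, contractile and matrix list members whose probe set read 13 or higher on both arrays, 19 had another detected probe set, and in 4 of them (Cald1, Col1a2, Col3a1 and Fabp4) it differed the same way by at least 0.5 more. Among members with a less bright probe set this was so for 11 of 182.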
